A study of Mus musculus with 4 samples.

Results

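The replication-dependent histone genes are the clustered genes that supply core and linker histones to newly made chromatin. Members were all protein-coding genes of both count tables whose GENCODE M21 symbol begins with Hist1h, Hist2h, Hist3h or Hist4h. The annotation holds 67 such genes, of which 65 are among the 46078 mouse gene rows of the tables. They comprise 6 H1, 18 H2A, 16 H2B, 12 H3 and 13 H4 genes. Most lie in the large Hist1 cluster on chromosome 13, and the Hist2, Hist3 and Hist4 genes lie on chromosomes 3, 11 and 6.

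Cells were wild-type mouse E14 embryonic stem (ES) cells, grown before the sort in 2i, a serum-free medium in which inhibitors of MEK and GSK3 hold ES cells in the naive state. In the study's culture methods this medium also holds the cytokine LIF, which the labels of these samples do not mention. A gate on forward and side scatter took small cells, which the labels place at the exit of mitosis and in G1, and an ungated sort was the control. Both sorts were replated on laminin for 6 h, either in 2i or in N2B27, the same basal medium without the inhibitors or LIF, in which ES cells leave naive pluripotency. This gave 4 samples of 24 single cells each, named here by medium and gate, sequenced with Smart-seq2, which copies RNA from a primer that pairs with poly(A) tails.

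In dividing cells, core histones are needed in bulk while DNA is copied, and most of their messenger RNA is made in S phase. These transcripts are unusual in that they end in a short stem-loop bound by the protein SLBP instead of a poly(A) tail, and they decay when DNA synthesis stops. A minority of transcripts of some histone genes carries a poly(A) tail from a site beyond the stem-loop. Counts from poly(A)-primed libraries therefore describe the primed part of the histone RNA, and the size of that part was not measured here.

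The stem-loop is shown because it separates the usual histone 3′ end from the sequence that a poly(A) primer can reach. A 16-base stem-loop of 6 base pairs and a loop of 4 bases was found in 43 of the 65 members, between 21 and 58 bases after the stop codon with a median of 32. Of 58725 other coding transcripts, 31 held such a stem-loop, or 0.0528%. The 3 commonest forms in the RNA strand, written as DNA with the stem in capitals, were these.
Form shared by H1, H2A, H2B and H3 genes: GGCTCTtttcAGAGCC
Form of H4 genes: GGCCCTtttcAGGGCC
Form of other H1, H2B and H3 genes: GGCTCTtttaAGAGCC
The first form was in 23 members of the tables, the second in 7 and the third in 6. Of the 22 members without a stem-loop, 17 have an annotated transcript that ends under 50 bases after the stop codon, so most of these annotations stop before its usual place. In Hist1h4d the stem-loop lies at chr13:23581950-23581965 (GRCm38, plus strand), and 770 annotated bases follow it. In Hist1h1e it lies at chr13:23621782-23621797 (minus strand) with 1153 bases after it, and in Hist1h2ao at chr13:21810898-21810913 (plus strand) with 31 bases after it. Runs of A were searched before the stem-loop, or up to the stop codon in members without one, and later sequence was not searched. In that part, the transcripts of Hist1h2ao and Hist1h2ap hold an encoded run of 12 A bases and that of Hist1h2ae a run of 8. The other 62 members hold runs of at most 7 there.

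A filter on total counts, genes detected and mitochondrial counts kept 12 cells of 2i small, 22 of 2i ungated, 20 of N2B27 small and 21 of N2B27 ungated, with 1364155 to 4844170 gene counts per cell. Counts were divided by size factors to give normalized counts. ERCC spike-in RNA took a median of 3.47% of counts in 2i small, 1.28% in 2i ungated, 2.45% in N2B27 small and 1.14% in N2B27 ungated cells. One kept 2i small cell stood apart with 40.9% spike-in and a size factor of 0.133, and another had 15712 genes detected and 0.0673% spike-in, so values of 2i small are also given without the former where that moves them by over 1.5 times. Phase calls by cyclone, which uses none of the members, gave 6 G1, 5 S and 1 G2/M cells in 2i small, 8 S and 14 G2/M in 2i ungated, 6 G1, 11 S and 3 G2/M in N2B27 small, and 2 G1, 4 S and 15 G2/M in N2B27 ungated. Medium and plate cannot be told apart, since each medium was 1 plate, and the gates lay on different index rows. Summed ES cell markers ranged from 16425 to 42522 normalized counts over the samples. The highest value, of 2i small, included 1 cell with a sum of 228134. Without the cell with 40.9% spike-in, the marker Dppa5a fell there from a mean of 36993 to 20362. Klf2 fell as well, and the other listed ES cell markers rose slightly. Fibroblast markers were at 0.0555 or less, and the trophoblast list reached 178 to 426. Each condition is 1 sample, so no difference was tested. Poisson and Clopper-Pearson intervals reflect counting error alone, and intervals of member medians give the spread over members, which are not replicates. The plates reuse index pairs, 24 for each gate, which name different wells.

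Histone transcripts were a small share of each library. Summed over all members they took 0.0492% of gene counts in 2i small, 0.0357% in 2i ungated, 0.0583% in N2B27 small and 0.0362% in N2B27 ungated, or 90670 counts over the 75 cells. Most of these counts fell on H2A with 31.6%, H4 with 29.3% and H1 with 28.998%, whereas H2B held 6.04% and H3 4.10%. In chromatin the core histones H2A, H2B, H3 and H4 are present in equal number, which these counts did not mirror.

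A few genes made up most of the signal. Hist1h4d alone gave 27.5% of member counts, the top 3 genes 49.9% and the top 10 genes 84.6%. A mean of at least 10 normalized counts over the 4 sample means was reached by 14 members (7 H2A, 4 H1, 1 H2B, 1 H3 and 1 H4 genes) and by 10318 genes in all. In contrast, 26 of the 65 members stayed under a mean of 1 normalized count, and 7 had no count in any kept cell. These 7 were Hist2h2aa1, Hist2h2aa2, Hist2h2be, Hist2h2bb, Hist2h3b, Hist2h3c1 and the testis H1 gene Hist1h1t.

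**Figure D1:**
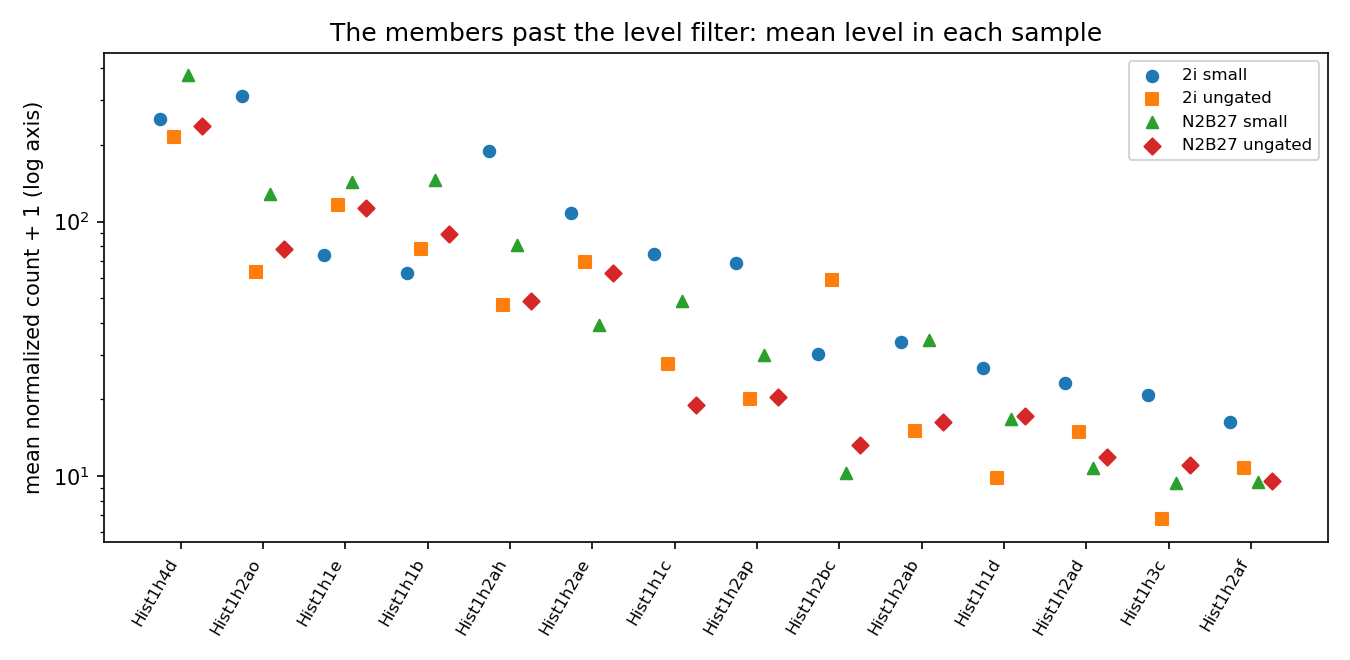
Mean normalized count plus 1 (log axis) of the 14 members past the level filter in each of the 4 samples, ordered by mean level. Points are means over the kept cells. Hist1h4d leads with sample means from 214 to 375, and Hist1h2ao and Hist1h2ah stand highest in 2i small.

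Per kilobase of exon, Hist1h2ao was highest at 301 normalized counts, followed by Hist1h4d at 237, Hist1h2ah at 224, Hist1h1b at 125 and Hist1h2ae at 98.0. Without the cell with 40.9% spike-in Hist1h4d led at 242, ahead of Hist1h2ao at 229 and Hist1h2ah at 172. Every H4 gene of the annotation encodes the same protein of 103 residues, and Hist1h4d held 24896 of the 26528 H4 counts, ahead of Hist1h4h at 8.69 and Hist1h4i at 4.48 per kilobase. The leading H1 genes were Hist1h1b, Hist1h1e at 57.3 and Hist1h1c at 26.5, which encode different linker histones. Among the H2B genes Hist1h2bc stood at 23.5, Hist1h2bk at 16.03 and Hist1h2bj at 14.5. Among the H3 genes Hist1h3c stood at 17.4, Hist1h3h at 14.7 and Hist1h3e at 10.3.

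Many members are near copies of each other, and this limits which gene a read can be assigned to. For each member the share of 75-base windows of its exons that no other annotated gene holds was computed. The share was 96.3% for Hist1h4d, 100% for Hist1h1b, 71.6% for Hist1h1e and 65.6% for Hist1h2ae, but 6.90% for Hist1h2ao, 8.46% for Hist1h2ah and 7.35% for Hist1h2ap. The last 3 H2A genes kept near-constant proportions. In 47 cells with at least 100 summed counts, Hist1h2ao took a median of 52.9% of their sum (42.4% to 60.1%), Hist1h2ah 34.1% (27.3% to 47.8%) and Hist1h2ap 13.5% (7.65% to 21.3%). Their separate levels are therefore uncertain. Of the 7 members with under 5% unique windows, 5 had no count and the other two held 0.0640% of member counts. Hist2h2be and Hist1h1t had no count either, although 100% of their windows are unique. Between 19.6% and 35.6% of the exons of the leading H2A genes overlap other annotated genes, and reads in such overlaps were left out by the counting.

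**Figure D2:**
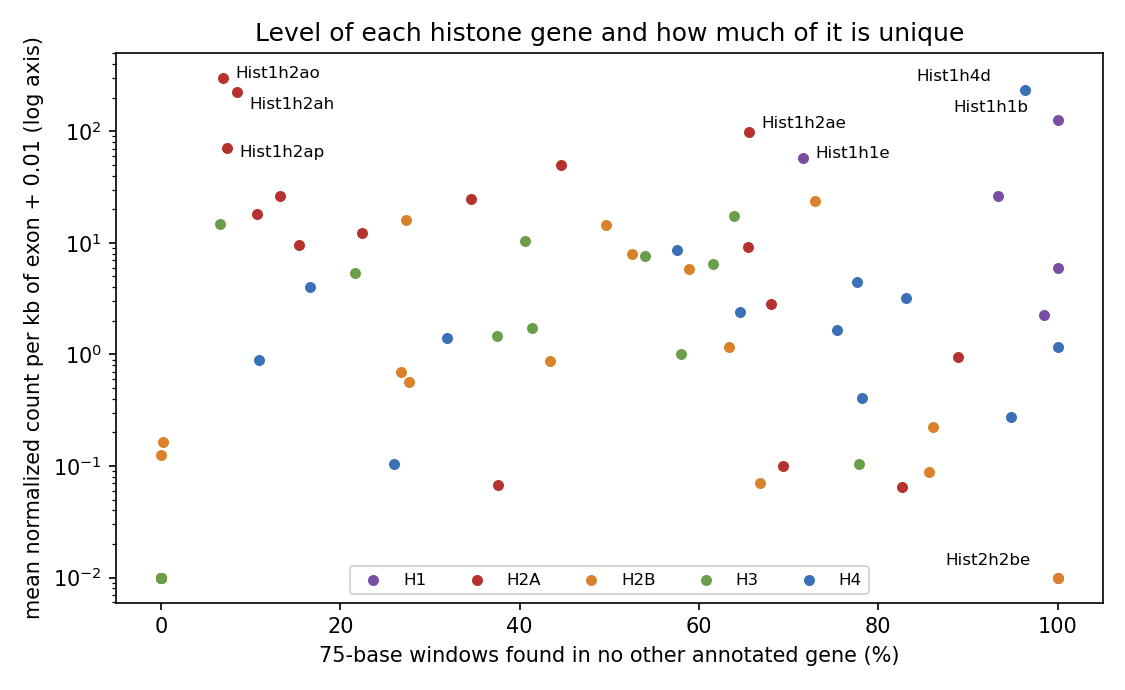
Mean normalized count per kb of exon plus 0.01 (log axis) of each of the 65 members against the percent of its 75-base windows found in no other annotated gene, coloured by histone class. High levels occur at both ends, with Hist1h2ao at 6.90% unique and Hist1h4d at 96.3%, and 5 of the 7 members without a count sit at 0%.

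The length of transcript annotated after the stem-loop was set beside the level. The 17 members with over 200 bases after it had a median of 1.15 normalized counts per kilobase (0 to 237), and the 26 with fewer had 7.01 (0 to 301). Exon length includes these bases, so a long annotated end by itself lowers the value per kilobase. Without that divisor, 4 of the 17 and 6 of the 26 passed the level filter. Their groups held 43695 and 25498 counts, of which Hist1h4d alone gave 24896. Hist1h4d, Hist1h1e, Hist1h1c and Hist1h1d were the 4 genes of the first kind past the level filter. Hist1h2ac, with 2010 bases after the stem-loop, stood at 0.943 per kilobase and Hist1h2be, with 1861, at 0.0792. The 3 members with a run of at least 8 A bases in the searched part, Hist1h2ao, Hist1h2ap and Hist1h2ae, all passed the level filter, against 11 of the other 62. Hist1h2ao and Hist1h2ap are near copies, so they are not separate observations. The annotation of their near copy Hist1h2ah ends 2 bases after the stop codon, and sequence after the stop codon was not searched there.

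Promoters of the H4 gene Hist1h4d and the H1 gene Hist1h1e are shown as examples, because the classes differed in promoter letters. Whether the letters go with the level was not tested. RefSeq promoters (GRCm38.p6), from 250 bases before to 50 after the start, were matched to 62 of the annotated members. Capitals mark the TATA box letters TATAAA, the CCAAT box letters and the pentamer GGTCC of H4 promoters, on either strand.
Hist1h4d, chr13:23581318-23581617, plus strand: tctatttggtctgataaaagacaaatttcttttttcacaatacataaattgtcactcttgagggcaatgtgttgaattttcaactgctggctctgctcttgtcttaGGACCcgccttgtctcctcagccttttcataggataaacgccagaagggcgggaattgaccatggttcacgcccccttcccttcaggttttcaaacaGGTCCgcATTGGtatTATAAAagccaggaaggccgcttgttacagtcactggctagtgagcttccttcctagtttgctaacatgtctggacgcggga
Hist1h1e, chr13:23622509-23622808, minus strand: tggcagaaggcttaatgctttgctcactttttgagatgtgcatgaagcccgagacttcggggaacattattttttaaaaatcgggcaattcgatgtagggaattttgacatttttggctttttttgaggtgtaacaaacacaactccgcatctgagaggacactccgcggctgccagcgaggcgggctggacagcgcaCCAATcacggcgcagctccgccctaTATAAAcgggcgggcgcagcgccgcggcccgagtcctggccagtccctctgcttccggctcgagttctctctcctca
The TATA box letters were in 56.5% of member promoters and in 14.2% of all 27025 promoters, and the CCAAT box in 85.5% against 37.9%. CCAAT was in every matched H1, H2A, H2B and H3 promoter but in 3 of 12 H4 promoters, of which Hist1h4d is one. GGTCC was in 11 of 12 H4 promoters and in 45.4% of all promoters. ATTTGCAT, the octamer letters, was in 7 of 18 H2A and 6 of 16 H2B promoters, in no H1, H3 or H4 promoter and in 1.75% of all. The sequence TTTCGCGC, searched as an E2F motif, was in 5 H2A and 4 H2B promoters and in 0.318% of all. These matches describe letters and not bound sites.

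The linker histone genes Hist1h1b and Hist1h1e were strongly counted in some cells of a sample and nearly absent from others. Hist1h1b had values in 2i small cells from 0 to 225 with a median of 1.24, in 2i ungated cells from 0 to 306 with a median of 47.9, in N2B27 small cells from 0 to 536 with a median of 1.78, and in N2B27 ungated cells from 0 to 442 with a median of 42.9. At least 10 counts, a minimum chosen after the values were seen, were found in 5 of 12, 14 of 22, 8 of 20 and 12 of 21 cells, in the same order. These shares are 41.7% (exact Clopper-Pearson interval 15.2% to 72.3%), 63.6% (40.7% to 82.8%), 40% (19.1% to 63.9%) and 57.1% (34.0% to 78.2%). The ungated samples had the larger share in both media, a difference that was not tested, since cells are not replicates of a condition.

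Hist1h1e had a similar pattern, with at least 10 counts in 5 of 12, 16 of 22, 9 of 20 and 14 of 21 cells. Its medians were 2.27 in small and 53.0 in ungated cells of 2i, and 1.85 in small and 63.9 in ungated cells of N2B27. Among the cells called G1 in the small samples, Hist1h1e reached 10 counts in 2 of 6 cells in 2i and 1 of 6 in N2B27, and all 4 small cells called G2/M had it, with 178 to 776 normalized counts. In N2B27 the means of Hist1h1b had the opposite order to its medians, at 145 in small and 88.3 in ungated cells.

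The H4 gene Hist1h4d reached 10 counts in 65 of the 75 cells, and the H2A genes Hist1h2ao and Hist1h2ah in 61 each, whereas any count was found in 72 cells for Hist1h4d and 74 for both H2A genes. Hist1h4d reached 10 counts in 9 of 12 2i small, 21 of 22 2i ungated, 17 of 20 N2B27 small and 18 of 21 N2B27 ungated cells. Its values ran from 0 to 1023 (median 88.9), 1.04 to 484 (median 168), 0 to 1801 (median 258) and 0.799 to 777 (median 163), so the samples overlapped throughout. Pooled counts were 4227 (exact Poisson interval 4101 to 4356), 5505 (5361 to 5652), 9208 (9021 to 9398) and 5956 (5806 to 6109). Members with a count in every kept cell were Hist1h4d in both ungated samples, Hist1h2ao and Hist1h2ah in all samples but 2i ungated, Hist1h2ap and Hist1h2ad in both small samples and Hist1h2ab in 2i small.

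Wells with more spike-in than gene counts were left out as cells and give an idea of the background. In 9 wells of 2i small, spike-in RNA was 80.9% to 97.7% of counts, and the members together had 1 to 5 counts in a well with none over 2. A further such well, of N2B27 ungated, had 55.8% spike-in, 190392 gene counts and 173 member counts with up to 95 in a member. Counts of 1 or 2 thus occurred in wells of 2i small that held almost no other histone counts. A median of 19.5 members had a count in a 2i small cell, 24 in 2i ungated, 20.5 in N2B27 small and 19 in N2B27 ungated. With every cell thinned to 1360000 counts these became 18.5, 21, 18.5 and 18.

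**Figure D3:**
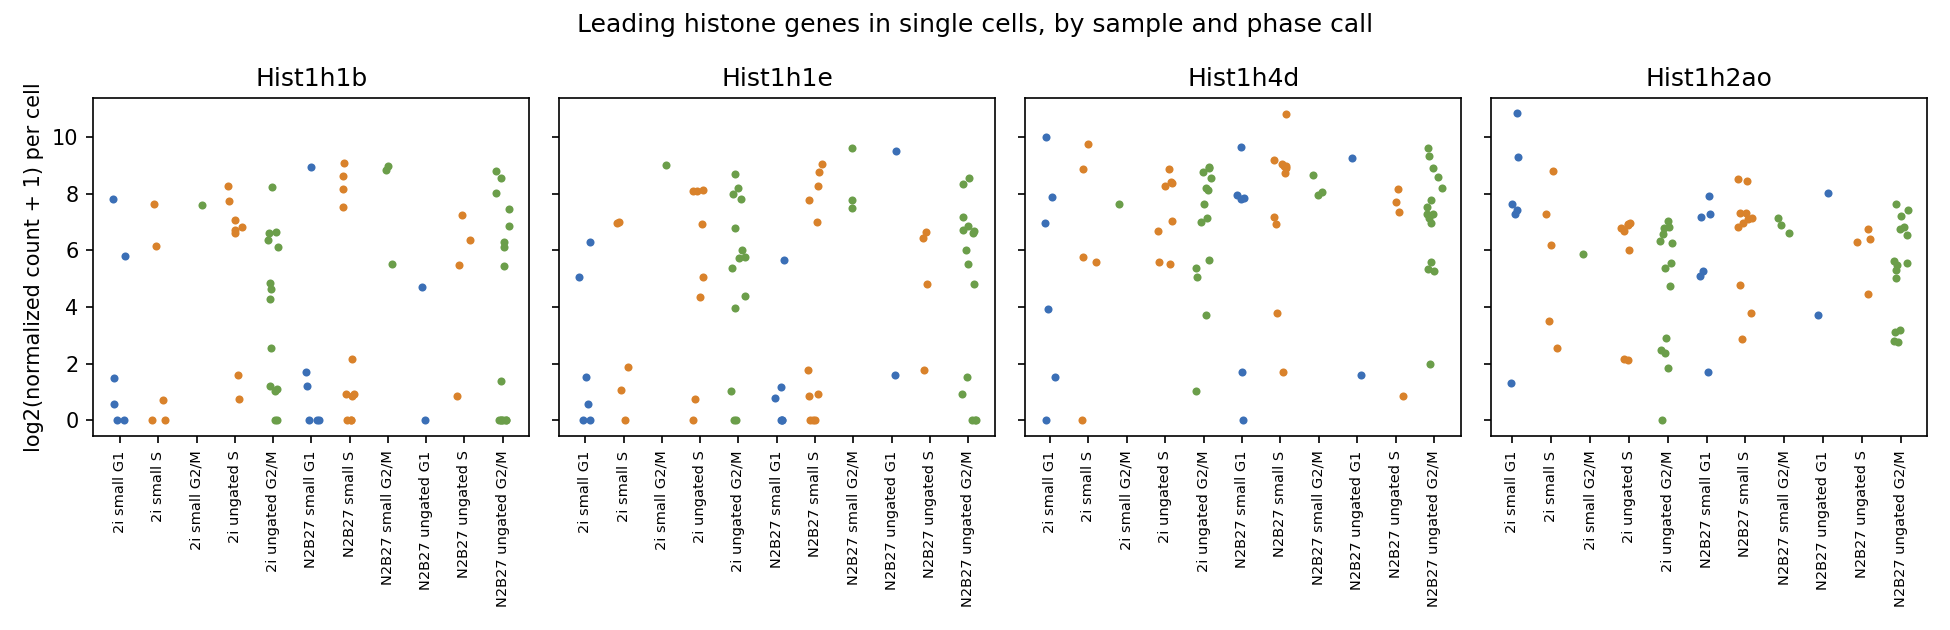
Normalized counts per cell (log2 of the count plus 1) of Hist1h1b, Hist1h1e, Hist1h4d and Hist1h2ao, by sample and cyclone phase call, 1 point per cell. For Hist1h1b and Hist1h1e most G1 cells of the small samples lie near 0 and a few lie high, and Hist1h4d and Hist1h2ao are counted in most cells of every column.

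The comparison of small with ungated cells asks whether histone message differed 6 h after cells were sorted as small. By then the small cells were called 6 G1, 11 S and 3 G2/M in N2B27, and 6 G1, 5 S and 1 G2/M in 2i. In N2B27 the summed member level was 1226 normalized counts per small cell (71.2 to 4191, median 1228) and 811 per ungated cell (36.3 to 2565, median 746). The ranges overlap widely, and the log2 ratio of the means was 0.60. All 5 classes had the higher mean in small cells: H1 357 against 235, H2A 345 against 261, H2B 64.0 against 31.6, H3 65.0 against 27.5 and H4 395 against 256. The H3 median went the other way, at 0.786 against 3.61, as did no other class.

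Of the 14 members tested in N2B27, Hist1h1c (log2 ratio 1.36) and Hist1h2ab (1.08) were higher by at least 2-fold in small cells, where 14.4% of all genes were. None was lower by 2-fold, which held for 19.1% of all genes. The next highest ratio was 0.73 for Hist1h2ah, and the lowest were -0.68 for Hist1h2ae, -0.37 for Hist1h2bc and -0.24 for Hist1h3c. The member median was 0.44 (interval of order statistics -0.24 to 0.73), beside -0.12 for all genes. With each gene's highest cell in each group left out, Hist1h1c came to 0.92 and Hist1h2ab to 0.70, so neither stayed past 2-fold. Spike-in share was higher in small cells as well. Scaling by spike-in turned the member median to -0.18, beside -0.82 for all genes. Without a filter on cells that median was -1.25 over 32 members, beside -0.20 for all genes. The latter setting takes in every well, also those with more spike-in than gene counts, and estimates the size factors anew. It also tests other members, so it is no test of the cell filter alone. The direction depended on the scaling and on this setting as a whole.

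In 2i the summed level was 1363 per small cell (25.1 to 3910, median 1003) and 826 per ungated cell (80.95 to 1513, median 1029), so the means and the medians were ordered differently. Without the cell with 40.9% spike-in the small cell mean was 1131. H2A stood out, with 789 in small against 251 in ungated cells, a log2 ratio of 1.65. Of the summed H2A level in 2i small, 41.2% came from the cell with 40.9% spike-in, in which 242 counts of Hist1h2ao became 1823 normalized counts. Without that cell the H2A mean was 506 and the log2 ratio 1.01. H1 and H4 means were nearly equal between the gates (238 against 234 and 258 against 239). The H3 mean was 39.8 against 24.6, and the H2B mean was 38.7 against 77.8. Medians in small and ungated cells were 187 and 194 for H1, 89.5 and 229 for H4, and 8.86 and 18.7 for H3. For H2B they were 5.10 and 24.2. With the highest cell of each group left out, the log2 ratio was -0.28 for H4 and 0.09 for H3.

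Among the members in 2i, 7 of 14 were higher by at least 2-fold in small cells, beside 16.5% of all genes, and 0 were lower, beside 30.6%. The largest ratios were 2.29 for Hist1h2ao, 2.01 for Hist1h2ah and 1.77 for Hist1h2ap, the near-identical genes, followed by Hist1h3c, Hist1h1c, Hist1h1d and Hist1h2ab. The lowest were -0.97 for Hist1h2bc, -0.65 for Hist1h1e and -0.30 for Hist1h1b. The member median was 0.90 (-0.30 to 1.77), and that of all genes -0.40. Leaving out the cell with 40.9% spike-in brought Hist1h2ao to 1.44, Hist1h2ah to 1.17, Hist1h2ap to 1.02 and Hist1h2ab to 0.64. With each gene's highest cell left out, 3 members were higher by 2-fold and 1, Hist1h1e at -1.57, was lower. Without a filter on cells the median over 32 members was -0.25, beside -0.32 for all genes.

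The comparison of N2B27 with 2i asks how these genes stood after 6 h without the inhibitors or LIF. In ungated cells the summed level was 811 in N2B27 and 826 in 2i, and the means of H1 (235 and 234), H2A (261 and 251), H3 (27.5 and 24.6) and H4 (256 and 239) were close. The medians were lower in N2B27, at 746 against 1029 for the summed level. They were 114 against 194 for H1, 224 against 288 for H2A, 3.61 against 18.7 for H3 and 214 against 229 for H4. The H2B mean was 31.6 in N2B27 and 77.8 in 2i, and 58.7% of the 2i level came from 1 cell, in which Hist1h2bc stood at 997. None of the 14 members was higher by 2-fold, beside 9.46% of all genes, and 1 was lower, Hist1h2bc at -2.15, beside 12.5%. With the highest cells left out Hist1h2bc was at -0.73. The other extremes were 0.80 for Hist1h1d, 0.71 for Hist1h3c, 0.29 for Hist1h2ao, -0.54 for Hist1h1c and -0.32 for Hist1h2ad, and the median of 0.04 (-0.32 to 0.29) lay beside -0.03 for all genes. Without a filter on cells it was 0.87 over 32 members, beside 0.04.

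In small cells, 1 member was higher by 2-fold in N2B27, Hist1h1b at 1.21, beside 25.5% of all genes, and 7 were lower, beside 20.1%. Hist1h1e at 0.95 and Hist1h4d at 0.57 followed Hist1h1b. Lowest were Hist1h2bc at -1.55, Hist1h2ae at -1.46 and Hist1h2ao at -1.27, with Hist1h2ah, Hist1h2ap, Hist1h3c and Hist1h2ad also past 2-fold. The member median was -0.94 (-1.27 to 0.57), and that of all genes 0.11. Without the cell with 40.9% spike-in, Hist1h2ao stood at -0.42, Hist1h2ah at -0.39, Hist1h2ap at -0.45 and Hist1h2ad at -0.33, and 3 members were lower by 2-fold. Without the cell with the most genes Hist1h1e came to 1.05 and so passed 2-fold. Without a filter on cells the median turned to 0.24 over 32 members, beside 0.01 for all genes. The 4 comparisons share samples in pairs, so their ratios are not independent of each other.

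**Figure D4:**
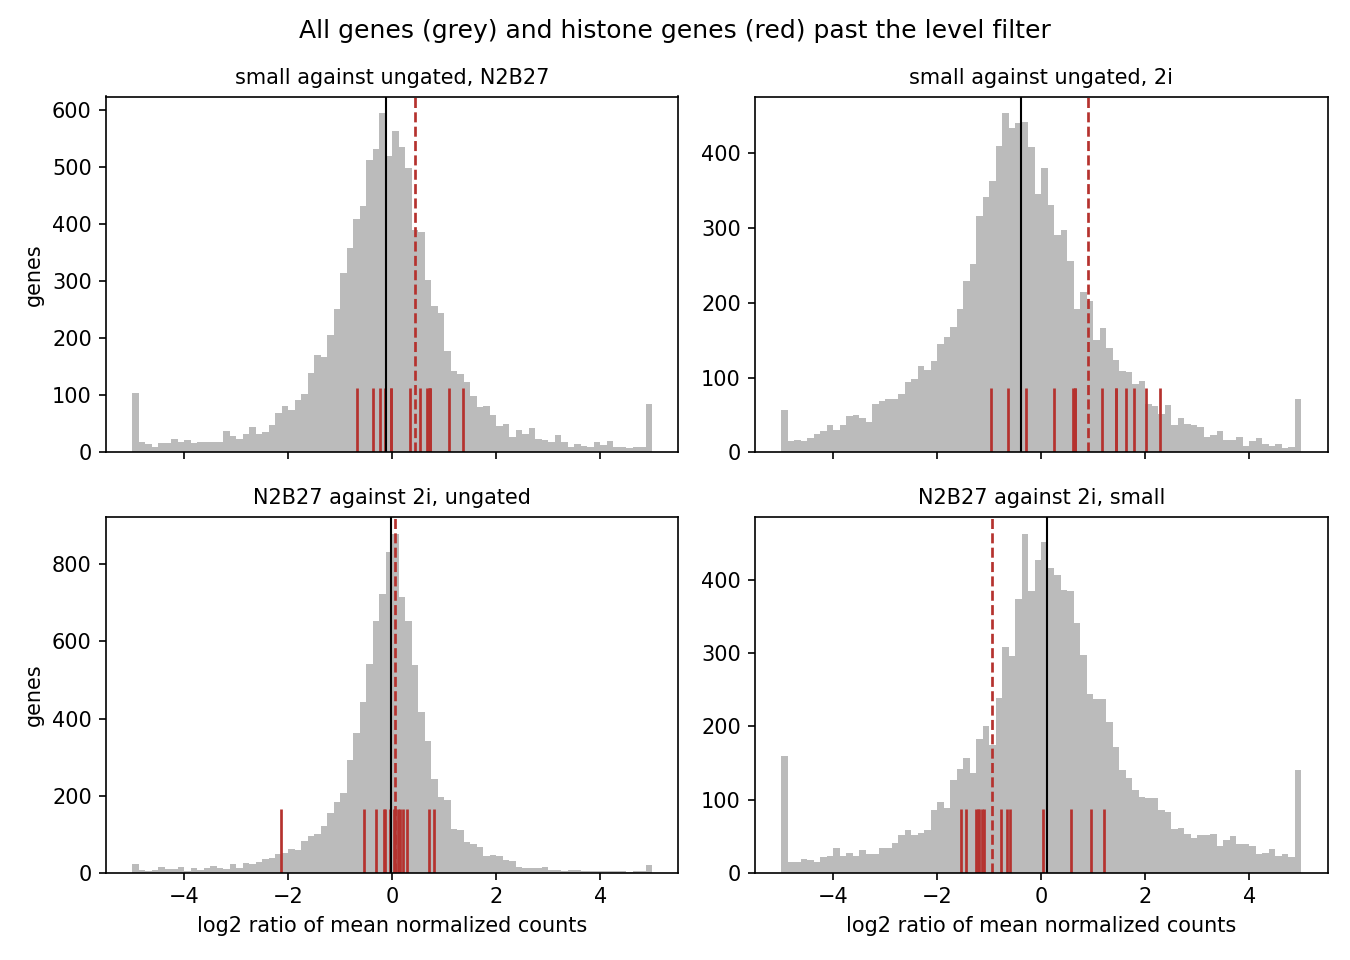
Histograms of the log2 ratio of mean normalized counts over the 10318 genes past the level filter, in 4 comparisons, with values beyond 5 placed in the end bins. Red ticks mark the 14 members, and the solid and dashed lines mark the medians of all genes and of the members, which lie at -0.40 and 0.90 for small against ungated cells in 2i.

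Phase calls allowed S cells to be compared with other cells of the same sample. In 2i ungated cells the summed level was 1048 in 8 S cells (292 to 1513) and 699 in 14 G2/M cells (80.95 to 1477). All 14 members had the higher mean in S, with a median log2 ratio of 0.57 (0.10 to 1.01), beside -0.02 for all genes. Past 2-fold were 3 members, Hist1h2bc (5.09), Hist1h1b (1.20) and Hist1h2ab (1.01), beside 9.28% of all genes, and 0 were lower, beside 15.4%. Hist1h1b had a median of 107 in S and 21.04 in G2/M cells, and Hist1h4d 220 and 168. The lowest ratios were 0.03 for Hist1h1c, 0.07 for Hist1h4d and 0.10 for Hist1h3c. With the highest cells left out Hist1h1d came to -0.75, Hist1h3c to -0.05 and Hist1h4d to -0.02, so 11 of the 14 were then higher in S, and Hist1h2bc was at 3.66 and Hist1h2ab at 0.98. With Seurat phases the median was 1.08 and 8 members were past 2-fold. The values of all genes under those calls are not given here, so these 2 values describe that setting alone.

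In N2B27 ungated cells, 4 S cells had a summed level of 680 (217 to 892) and 15 G2/M cells 781 (74.2 to 2371). Higher by 2-fold in S were Hist1h2bc (2.81), Hist1h1d (1.04) and Hist1h1c (1.01), beside 10.6% of all genes, and Hist1h3c (-3.91), at 0 in all 4 S cells, was lower, beside 33.1%. Next lowest were Hist1h1e at -0.80 and Hist1h4d at -0.57. The median was 0.06 (-0.57 to 1.01), and -0.29 for all genes. With the highest cells left out Hist1h2bc was at 4.22, but Hist1h1c fell short of 2-fold at 0.32, Hist1h1d turned to -0.89 and the median to -0.22.

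In N2B27 small cells, 11 S cells had a summed level of 1374 (92.9 to 4191) and 6 G1 cells 808 (71.2 to 1476). Higher by 2-fold in S were 6 members, led by Hist1h1d (4.28), Hist1h1e (3.96) and Hist1h3c (3.48), with Hist1h2ae, Hist1h2ad and Hist1h2af, beside 39% of all genes. Hist1h2bc was lower at -2.16, beside 17.5%, followed by Hist1h1c at -0.97 and Hist1h2ab at -0.57. Hist1h2ae had 5.17 normalized counts in G1 (1.43 to 10.5) and 58.0 in S cells (0 to 243). The median of 0.75 (-0.57 to 3.48) lay beside 0.38 for all genes. Single G1 cells set several of these means, with Hist1h1c at 423 and Hist1h2ab at 240 normalized counts in 1 cell each. With the highest cells left out Hist1h2bc came to -0.15, Hist1h1c turned to 3.81 and Hist1h2ab to 1.78, and Hist1h1b rose from 0.61 to 5.67. The G1 cells had a median of 4.93% spike-in against 2.36% in S cells, and with spike-in scaling the median was 2.04 over 25 members, beside 1.28 for all genes.

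Classes moved together unevenly across cells. Over the 75 cells, which share plates and sequencing runs, the Spearman correlation of class sums was 0.60 for H2A with H4, 0.56 for H1 with H4 and 0.44 for H1 with H2A, while H2B was at -0.19 with H2A and 0.04 with H3. Within samples, H1 with H4 ranged from 0.46 to 0.84, whereas H1 with H2A ranged from -0.16 to 0.80. Hist1h2bc correlated with Hist1h2ah at -0.15. The 5 genes outside the members whose levels ranked most like the summed member level, among 10304 genes, were Gm13237 at 0.51, Snrpd2 at 0.49, Hmgb2 at 0.40, Rpl41 at 0.39 and Gm5391 at 0.38. Hmgb2 encodes a chromatin protein of dividing cells and Snrpd2 a core protein of spliceosomal particles.

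The machinery that makes and trims histone messages was read from a list of 26 genes. Zcchc6 and Zcchc11 were not found under these symbols, and the other 24 all passed the level filter. SLBP binds the stem-loop, and Slbp had mean levels of 328 in small and 642 in ungated cells of 2i, and of 825 in small and 699.8 normalized counts in ungated cells of N2B27. In N2B27, 6 of the 24 were higher by 2-fold in small cells, Npat (4.54), Yy1 (1.65), Lsm11 (1.51), Sympk (1.46), Casp8ap2 (1.41) and Upf1 (1.34), and 2 were lower, Srrt (-1.41) and Zfp473 (-1.16). Of all genes, 14.4% were higher and 19.1% lower. NPAT is the coactivator of histone transcription, and LSM11 belongs to the U7 particle that trims the 3′ end. In 2i, 16.5% of all genes were higher in small cells and 30.6% lower. Of the 24, 5 were higher in small cells, Yy1 (5.81), Ccne1 (2.76), Ccne2 (2.29), Upf1 (2.07) and Lsm1 (1.75), and 6 were lower, Sympk (-3.75), Lsm11 (-3.19), Cpsf3 (-2.25), Pole (-1.67), Lsm10 (-1.07) and Cstf2 (-1.06). The cell with 40.9% spike-in decided 3 of these, since without it Yy1 turned to -2.28, Ccne1 to -0.80 and Lsm1 came to 0.03, and Lsm10 fell short of 2-fold at -0.97. Lsm11 and Sympk thus had opposite signs in the media, a difference that was not tested. In 2i each had a count in only 3 of 12 small cells, against 11 (Lsm11) and 16 (Sympk) of 22 ungated cells. In N2B27 each had a count in 9 of 20 small cells, against 8 and 16 of 21 ungated cells. Their means, 3.55 and 1.65 in small cells of 2i, therefore rest on few cells. Ratios with the highest cells left out are not given for this list.

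Between the media in ungated cells, Zfp473 (1.44) was higher in N2B27, and Npat (-3.58), Lsm11 (-1.15) and Casp8ap2 (-1.13) were lower. Of all genes, 9.46% were higher and 12.5% lower. In small cells 6 were higher in N2B27, Sympk (4.25), Lsm11 (3.55), Cstf2 (2.71), Cpsf3 (2.26), Pole (1.95) and Slbp (1.33), and 5 were lower, Yy1 (-3.64), Ccne1 (-3.14), Lsm1 (-1.75), Ccne2 (-1.24) and Cdk2 (-1.21). The shares of all genes were 25.5% higher and 20.1% lower. Without the cell with 40.9% spike-in Yy1 turned to 4.45, Ccne1 to 0.43 and Lsm1 to -0.03, and Cpsf2 (-1.08) joined the lower genes. CPSF3 is the nuclease that cuts histone precursors and symplekin, from Sympk, its scaffold. In S against G2/M cells of 2i ungated, Yy1 (2.36), Lsm10 (1.57) and Ccne2 (1.47) were higher and Pou2f1 (-4.32), Npat (-2.37), Sympk (-2.09) and Zfp473 (-1.79) lower. The same contrast in N2B27 ungated gave Yy1 (3.67), Casp8ap2 (2.24) and Srrt (1.67) higher and Lsm11 (-4.69), Ccne2 (-4.34), Upf1 (-3.07), Zfp473 (-2.60) and Ncbp2 (-1.07) lower. In S against G1 cells of N2B27 small, Npat (5.85), Ccne2 (5.74), Zfp473 (5.39), Casp8ap2 (2.56), Lsm10 (1.94), Ccne1 (1.28), Ncbp1 (1.25) and Cdk2 (1.08) were higher, and Sympk (-1.83), Pou2f1 (-1.38) and Cstf2 (-1.01) lower. Among all genes, 9.28% were higher and 15.4% lower in S against G2/M cells of 2i ungated. The shares were 10.6% and 33.1% in those of N2B27 ungated, and 39% and 17.5% in S against G1 cells. Some large ratios of this list rest on few cells. Npat had a count in 9 of 21 ungated cells of N2B27, and Zfp473 in 3 of 20 small cells of that medium. Ccne2 had one in 5 small cells of 2i and in 7 cells of every other sample. Other genes, such as Ccne1 and Slbp, had a count in most cells.

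Other histone genes gave a point of comparison. Of 13 genes listed as replication-independent variants, 11 passed the filter, and their median ratio of small to ungated cells was 0.23 in N2B27 and -0.12 in 2i. The 3′ ends of their transcripts were not examined. H3f3b, which encodes the H3.3 variant, had 2910 to 4047 normalized counts over the samples, and Cenpa, the centromeric H3, was lower in small cells by -1.05 in N2B27 and -2.19 in 2i. Of 24 histone chaperone genes, 23 passed, with 2 higher and 6 lower in small N2B27 cells and 5 higher and 4 lower in small 2i cells, or 2 and 1 without the cell with 40.9% spike-in. The shares of all genes higher and lower were 14.4% and 19.1% in N2B27, and 16.5% and 30.6% in 2i. Of 32 DNA replication and E2F genes, 30 passed, with medians of 0.06 in N2B27 and -0.44 in 2i, and with medians of 0.30 and 0.29 for S against G2/M cells in 2i and N2B27 ungated.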

How the data were processed

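Single cells of 4 samples were sequenced with Smart-seq2. The authors trimmed reads with Trim Galore 0.4.4, aligned them to GRCm38 (mm10) with GSNAP 2015-09-29, counted them on Ensembl 81 genes with HTSeq and deposited raw counts for each plate. Columns were matched to samples through the list of sequencing runs, and 0 columns were left unused. Of the member genes, 2 identifiers (Hist1h2bm and Hist1h2bh) are not analysed here. HTSeq leaves out reads on overlapping genes and reads without a unique place, which lowers near-identical histone genes. Read length is not given in the sources used here, so the window of 75 bases is an assumption.

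Cells were filtered per plate at 3 median absolute deviations with scater 1.30.1, normalized with DESeq2 1.42.0 size factors, and given phases with cyclone of scran 1.30.0, where 2 of 75 calls changed over 5 other random seeds, or with Seurat 5.3.0, in R 4.3.3. No doublet caller was run on these singly sorted cells. Ratios are log2 of mean normalized count plus a pseudocount of 1, over genes with a mean of at least 10, computed with Python 3.11.15, numpy 2.4.6, pandas 2.3.3 and scipy 1.17.1, and the calculation was tested on simulated data. With 1 sample per condition no p-value was computed, exact intervals of counts and shares at 95% cover counting error only, and intervals of member medians are order statistics over members. Named genes were, per class, the 3 members highest per kilobase, per comparison the 3 members most extreme in each direction, members counted in every cell of a sample, genes of histone transcription and processing past 2-fold and the 5 genes most correlated with the members. Members and gene lists were chosen with earlier results of these data known. Alternatives covered cell filters, scaling, pseudocounts, level filters, phases and unique windows. Values per kilobase and of gene lists without single 2i small cells were added after seeing the data.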

Additional observations from a re-analysis of the deposited data

Results flagged for a closer look

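The mean summed level of the H2B class had opposite ratios of small to ungated cells in the media. Its summed level had a log2 ratio of 1.02 in N2B27 (64.0 against 31.6 normalized counts) and of -1.01 in 2i (38.7 against 77.8), and the difference was not tested, since each condition is 1 sample. In 2i ungated cells 58.7% of the level came from 1 cell, and with the highest cell of each group left out, a choice made after seeing the data, the ratios were 0.83 and -0.74. The class medians were 7.44 in small and 6.51 in ungated cells of N2B27, and 5.10 and 24.2 in 2i. Hist1h2bc, the only H2B gene past the level filter, had the lower mean in small cells of both media. Its means were 9.27 against 12.3 in N2B27 and 29.1 against 58.0 in 2i.

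A pair of histone pseudogenes outside the members also had counts. Hist1h2aj held 241 counts in 60 of 75 cells and Hist1h2al 175 counts in 32 cells, above a floor of 3 counts.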

How the results depend on the processing

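Across 98 member medians computed under other settings, 93 stayed within the interval of the reported median, and 12 had the other sign. That interval left out 0 in 1 comparison, S against G2/M cells of 2i ungated, whose median stayed positive, and it held 0 in the other 6. Of 196 counts of members past 2-fold, 120 stayed within 1.5 times the reported count. The counts are small and the cause of each move was not tested. Where no share of all genes stands beside a count below, that share is not given here. Such a count describes the setting alone and shows nothing particular to the members.

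The setting without a filter on cells took in every well, also those with more spike-in than gene counts, and estimated size factors anew. In it, 32 members passed the level filter. Their medians became -1.25 for small against ungated cells in N2B27, -0.25 for those in 2i, 0.87 for N2B27 against 2i in ungated cells and 0.24 in small cells. Of the 32, 18 and 9 were lower in small cells of N2B27 and 2i, beside 26.7% and 31.6% of all genes, 15 were higher and 5 lower in N2B27 ungated against 2i ungated, beside 18.1% and 17.2%, and 8 were higher in N2B27 small against 2i small, beside 24.9%. No phases were called for the cells left out, so phase comparisons have no such value. Without the 2i small cell with the most spike-in, 3 members were lower in N2B27 small against 2i small, and without the one with the most genes 2 were higher. With counts scaled to each cell's total, 2 and 3 were higher and lower in that comparison, as with scran size factors, which gave a median of 0.77 and 4 members higher for small cells in N2B27, and both scalings gave 2 lower members in N2B27 ungated against 2i ungated, in S against G2/M cells of N2B27 ungated and in S against G1 cells.

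Spike-in size factors moved the median of all genes to 0.79 for small against ungated cells in 2i, -0.82 in N2B27 and -1.59 for N2B27 small against 2i small, where the member medians were 1.52, -0.18 and -1.92. With them 25 members passed the level filter, of which 3 were lower in small N2B27 cells, beside 41.4% of all genes, and 21 higher in small 2i cells, beside 40.7%. Further, 2 were higher and 4 lower in N2B27 ungated against 2i ungated, beside 13.3% and 14.9%, 0 higher and 22 lower in N2B27 small against 2i small, beside 4.07% and 70.7%, 2 lower in S against G2/M cells of 2i, beside 28.9%, 6 higher and 5 lower in those of N2B27, beside 13.1% and 34.2%, and 21 higher in S against G1 cells, beside 56.2%. Pooled counts gave 1 higher in N2B27 ungated against 2i ungated, 0 higher and 2 lower in N2B27 small against 2i small, and 2 lower in S against G1 cells. Means of log2 values gave 0 higher in small N2B27 cells, 3 higher and 3 lower in small 2i cells, 1 lower in N2B27 small against 2i small, 2 lower in S against G2/M cells of N2B27 and 0 lower in S against G1 cells. Leaving out each highest cell gave 0 higher in small N2B27 cells, 3 higher and 1 lower in small 2i cells, 0 lower in N2B27 ungated, 2 higher and 2 lower in N2B27 small against 2i small, 1 higher in S against G2/M cells of N2B27, and 10 higher and 0 lower in S against G1 cells. A pseudocount of 5 left 1 higher in small N2B27 cells and in S against G2/M cells of N2B27.

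Without the level filter, which left 52 to 58 members with a count, members higher and lower were 11 and 4 for small N2B27 cells, 11 and 7 for small 2i cells, 4 and 7 for N2B27 ungated, 7 and 6 for S against G2/M cells of 2i, 5 and 12 for those of N2B27, and 23 and 4 for S against G1 cells, and 10 were higher in N2B27 small. A filter of 50 gave 0 higher in small N2B27 cells, 2 in small 2i cells and 3 lower in N2B27 small, 1 and 0 higher in S against G2/M cells of 2i and N2B27, 2 higher in S against G1 cells, and 0 lower elsewhere where the count moved. Seurat phases gave a median of 1.08 and 8 higher in S against G2/M cells of 2i, and 12 higher in S against G1 cells. Members with at least 50% unique windows gave 1 higher in small N2B27 cells, 3 in small 2i cells and 3 lower in N2B27 small.

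No paired analysis was possible because each group is 1 sample, and the replicate number that all 4 samples share therefore pairs nothing. Counts of 1 or 2 per cell also occurred in the 9 wells of 2i small with mostly spike-in RNA, and a gene present in few cells has a mean set by those cells.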
